A study of Mus musculus with 7 samples.

Results

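The genes described here encode the major proteins of mouse milk, and their rows were taken by symbol from the matrix of raw counts of single mammary cells, 10 genes of 27998. They are the calcium-sensitive caseins Csn1s1, Csn1s2a and Csn2, the kappa-casein Csn3, the whey proteins Lalba and Wap, the mucin-like Glycam1, the iron carrier transferrin (Trf), the milk fat globule protein lactadherin (Mfge8) and osteopontin (Spp1). Each was found once in the matrix and each had at least 1 count. Dissociated cells of the #4 mammary glands, with lymph nodes removed, came from 3 young mice (3 to 4 months) and 4 aged mice (13 to 14 months), and both groups were nulliparous females in diestrus of a mixed FVB, 129 and C57BL/6J background. Each mouse gave 1 library, and the mice are called Young A, B and C and Aged A, B, C and D. Age and the processing of the libraries cannot be told apart.

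Casein micelles carry most of the protein and calcium of milk. Kappa-casein sits on their surface and keeps them in suspension, and the calcium-sensitive caseins make up their core. Alpha-lactalbumin, the product of Lalba, turns galactosyltransferase into lactose synthase. These genes are best known from pregnancy and lactation, when prolactin acts through STAT5 on the secretory alveolar cells, and STAT5 binds DNA at the palindrome TTCNNNGAA.

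The matrix held 13684 cells with 6652599 to 16999625 unique molecular identifiers (UMIs, each 1 captured mRNA molecule) per mouse, and the median cell of a mouse had 4758.5 to 7109.5 UMIs. In all, 44 cell barcodes occurred in 2 or more mice. The authors assigned the cells to 13 types, and 4820 were alveolar (AV) luminal cells, 794 from young and 4026 from aged mice. The other epithelial types were hormone-sensing (HS) luminal, HS-AV luminal and myoepithelial cells. The study recognised AV cells by genes that include Csn3, Trf and Mfge8, so the height of these 3 genes in AV cells over other types is part of the definition and is given as a description. The 6 AV markers Elf5, Kit, Cd14, Aldh1a3, Wfdc18 and Ltf were all detected in AV cells, at a summed 7633 to 14360 UMIs per 1000000 UMIs (CPM) in young and 3578 to 6933 CPM in aged mice. Wfdc18 gave most of this sum, with 10038 of 10938 CPM in Young A and 10984 of 14360 CPM in Young C. In the age comparison described below Wfdc18 was called lower and Elf5 higher in aged mice, and Ltf and Cd14 were not called. The lower sum is thus not a fall of all AV markers. A 3′ UMI count has no length normalisation here, and levels of different genes were not compared.

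The 3 calcium-sensitive caseins and Csn3 lie on chromosome 5 of GRCm38 between 87666208 and 87932665, a span of 266.5 kb. Csn1s1 (87666208 to 87682578), Csn1s2a (87774567 to 87788797) and Csn3 (87925579 to 87932665) are on the plus strand and Csn2 (87692624 to 87699630) on the minus strand. Spp1 is on the same chromosome at 104435118 to 104441050. The upstream sequences below, from RefSeq on GRCm38.p6 and written 5′ to 3′, belong to the 4 genes that were near or at 0 in young AV cells and abundant in most aged mice, as described below, and capitals mark a match to the STAT5 palindrome TTCNNNGAA, which reads the same on both strands. For Csn1s1 (chr5:87666088-87666207, plus strand), Csn1s2a (chr5:87774330-87774449, plus strand) and Spp1 (chr5:104434991-104435110, plus strand) the 120 bases before the annotated start are shown, and for Csn2 (chr5:87699499-87699528, minus strand) the 30 bases around its match. The RefSeq start of Csn2 lies inside the gene span given above, which comes from GENCODE, so these bases are upstream of the RefSeq start only, and distances are counted from it.
Csn1s1: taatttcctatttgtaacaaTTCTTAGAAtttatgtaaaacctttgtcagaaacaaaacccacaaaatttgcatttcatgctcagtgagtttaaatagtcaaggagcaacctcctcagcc
Csn2: tcacgtagacTTCTTGGAAttgaagggact
Csn1s2a: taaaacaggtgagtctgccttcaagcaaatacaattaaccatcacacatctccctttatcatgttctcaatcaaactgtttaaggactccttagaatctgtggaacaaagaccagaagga
Spp1: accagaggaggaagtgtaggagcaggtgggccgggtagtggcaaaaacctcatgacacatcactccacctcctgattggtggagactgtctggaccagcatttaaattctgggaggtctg

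Upstream sequences were matched for 8 of the 10 genes, and 3 of them, Csn1s1, Csn2 and Glycam1, held the palindrome within 250 bases of the start. Of all 32851 promoters in the same collection 7.02% held it. The match began 100 bases before the start in Csn1s1, 93 bases in Csn2 and 145 bases in Glycam1. Csn1s2a and Spp1 did not have these letters in the window, and their levels were near 0 in young AV cells as those of Csn1s1 and Csn2 were. For Csn1s2a the window ended at 87774449, before the GENCODE start at 87774567. The bases between these positions were not searched, so a match nearer the GENCODE start of Csn1s2a would have been missed. Csn3 and Trf had no entry.

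The milk protein transcripts were found almost entirely in AV cells. AV cells held 97.0% of all Csn3 UMIs, 98.4% of those of Csn1s1, 98.9% of Csn2, 99.3% of Csn1s2a, 96.8% of Lalba, 95.4% of Trf, 98.4% of Spp1 and all 47 UMIs of Wap. Mfge8 was spread more widely, with 90.6% in AV cells, and only 51.9% of the 79 UMIs of Glycam1 were there. Together the 10 genes made up 0.499%, 1.22% and 0.938% of all AV UMIs in the 3 young mice, and 2.99%, 1.40%, 3.00% and 2.78% in Aged A to D. The mean was 0.885% ± 0.363 at the young age (SD, n = 3) and 2.54% ± 0.770 at the older age (SD, n = 4).

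In AV cells of aged mice the calcium-sensitive caseins and Spp1 went from almost nothing to abundant in 3 of 4 animals. The means of Csn3, Trf and Mfge8, already abundant in young mice, rose by a smaller factor. The Trf change narrowly missed the threshold given below. The counts of each gene were summed over the AV cells of a mouse, expressed as CPM, and compared between age groups with the edgeR quasi-likelihood test over 11012 genes. Calling a gene required both an adjusted p below 0.05 and a 1.5-fold change. Of the 8 milk protein genes with enough counts to be tested, 6 were called higher in aged mice and none lower, where 2.9% of all genes tested were called higher and 3.26% lower. Csn1s1, Csn1s2a, Csn2 and Spp1 had 5, 6, 0 and 6 UMIs in all young AV cells and passed the filter on low counts through the aged mice, so these 4 could differ only upwards, and nothing is read from the number called.

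Csn1s1, the alpha-S1 casein, was at 1.73, 1.80 and 0.413 CPM in Young A to C and at 3276, 18.5, 5158 and 1669 CPM in Aged A to D. Aged A, C and D thus stood far above all young mice, and Aged B stood closer to the young animals than to the other aged animals. The mean rose from 1.31 ± 0.781 (SD, n = 3) to 2530 ± 2199 CPM (SD, n = 4), a ratio of 1925 that rests on 5 UMIs in all young AV cells (adjusted p = 0.00799, edgeR). Csn2, the beta-casein, had no UMI in any young AV cell and 1719, 1.69, 2825 and 427 CPM in the aged mice. Its aged mean of 1243 ± 1283 CPM was at least 1951-fold higher than the level of 3 counts over all young AV cells, 0.637 CPM (adjusted p = 0.0396, edgeR).

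Csn1s2a, an alpha-S2 casein, had the same order of mice. It measured 1.73, 1.80 and 0.826 CPM in young mice and 790, 3.29, 3666 and 488 CPM in aged mice, and its mean rose from 1.45 ± 0.543 to 1237 ± 1651 CPM (adjusted p = 0.0238, edgeR). The lowest aged value of each casein was that of Aged B and lay above the highest young value, though for Csn2 in this mouse 1.69 CPM in AV cells stood beside 2.10 CPM (3 UMIs) in vascular endothelial cells and 1.51 CPM in all non-epithelial cells. The 3 calcium-sensitive caseins together made up 0.578%, 1.16% and 0.258% of AV UMIs in Aged A, C and D and 0.00235% in Aged B, against at most 0.00036% in a young mouse.

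Spp1, a secreted phosphoprotein of milk that is also made by macrophages and bone cells, was at 0.577, 0 and 2.07 CPM in young and at 3327, 263, 976 and 2591 CPM in aged AV cells. Here Aged B was again the lowest aged mouse but stood well above the young mice. The mean rose from 0.881 ± 1.07 to 1789 ± 1414 CPM (adjusted p = 0.00103, edgeR), and Spp1 kept its call in all 16 alternatives to the main analysis. The summed level of 10 macrophage markers in the same AV sums, all 10 of them detected, went the other way, from 84.8 to 128 CPM in young to 6.41 to 20.2 CPM in aged mice.

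Kappa-casein differed from the other caseins in being high at both ages. Csn3 was at 2046, 5572 and 3685 CPM in young and at 8727, 5691, 9571 and 8799 CPM in aged AV cells, and Aged B lay just above the highest young mouse. The mean rose 2.18-fold, from 3768 ± 1765 to 8197 ± 1714 CPM (log2 change 1.39 ± 0.33 SE, adjusted p = 0.0362, edgeR). Mfge8, which coats milk fat globules and marks dying cells for uptake, was at 1523, 2282 and 2374 CPM in young and 3143, 3339, 2363 and 3747 CPM in aged mice. The groups overlapped, as Aged C lay below Young C. The ratio of mean CPM was 1.53, and the fitted change was 1.84-fold. It was called narrowly (log2 change 0.88 ± 0.23 SE, adjusted p = 0.0474, edgeR). Over 16 alternatives to the main analysis the call of Csn3 was lost in 8 and that of Mfge8 in 12.

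Trf and Lalba were not called. Trf, the iron carrier of milk and serum, was at 1407, 4167 and 3152 CPM in young and 7773, 4583, 4937 and 9814 CPM in aged AV cells. No aged mouse overlapped a young one, and the test narrowly missed its threshold (log2 change 1.49 ± 0.40 SE, adjusted p = 0.0530, edgeR). Lalba, the regulatory subunit of lactose synthase, was at 10.4, 158 and 162 CPM in young and 1108, 93.1, 548 and 311 CPM in aged mice. Aged B lay below Young B and Young C, and the log2 change was 2.50 ± 0.91 SE (adjusted p = 0.132, edgeR). Among all genes tested, 5.49% had every aged mouse above every young mouse, and 6 of the 10 milk protein genes did so, namely Csn1s1, Csn1s2a, Csn2, Csn3, Trf and Spp1, of which Csn3 and Trf alone were abundant in young mice.

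Wap and Glycam1 were too low to be tested. Wap, the whey acidic protein and one of the most abundant products of the lactating mouse gland, had 1 UMI in young AV cells and 30, 2, 10 and 4 UMIs in Aged A to D. Aged A thus gave most of its aged UMIs, and the groups overlapped, with Young C at 0.413 CPM and Aged B at 0.199 CPM. Glycam1 had 0 UMIs in young AV cells, 30 in Aged A, 11 in Aged C and 0 in the other two aged mice, and 28 of the 30 in Aged A came from 1 cell.

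**Figure D1:**
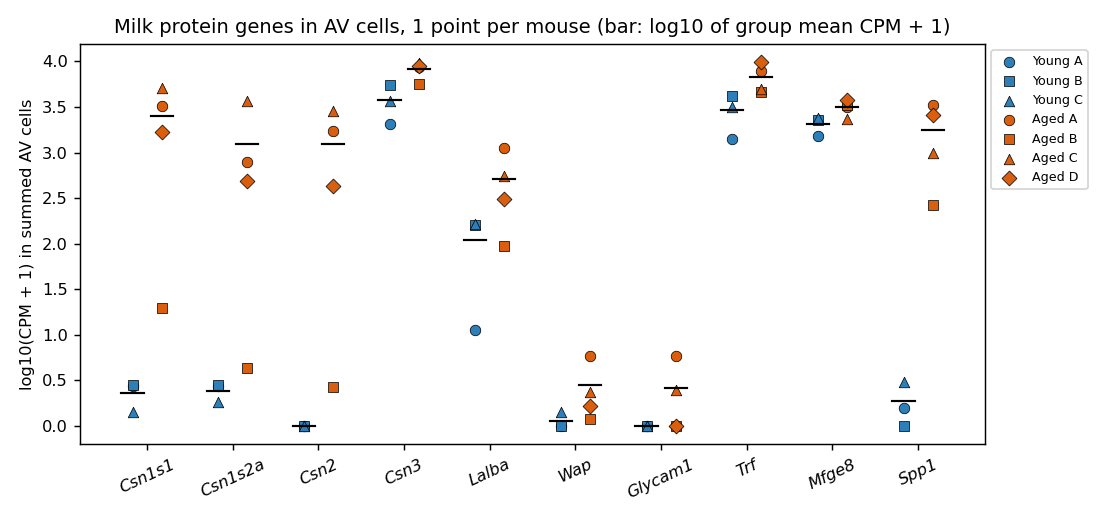
Level of each of the 10 milk protein genes in AV cells of each mouse, as log10(CPM + 1) on the vertical axis, with 1 point per mouse (blue young, orange aged) and a bar at the log10 of the group mean. The calcium-sensitive caseins and Spp1 are near 0 in the 3 young mice and high in Aged A, C and D, while Csn3, Trf and Mfge8 are high in every mouse.

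The calls rested on few animals. Leaving out Young A left 1 of the 6 calls, and so did leaving out Young C. Leaving out Young B left 3, and so did leaving out Aged A, Aged C or Aged D, without which Csn2 had too few counts to be tested. Without Aged B 6 genes were called, with Trf among them (log2 change 1.64, adjusted p = 0.0368, edgeR) and Mfge8 not (adjusted p = 0.0810). With ambient RNA subtracted, 3 calls were left, since Csn2 (adjusted p = 0.0669), Csn3 (0.0679) and Mfge8 (0.0957) passed the threshold no longer. The log2 changes themselves moved little, to 1.30 for Csn3 and 0.78 for Mfge8.

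The transcripts were unevenly shared among the AV cells of a mouse. Shares of cells with a UMI were compared after drawing 2000 UMIs from every cell, and no AV cell had fewer. After thinning, a Csn1s1 UMI was found in 67.7% of AV cells of Aged A (95% Wilson interval 64.5 to 70.7%), 90.4% in Aged C (88.3 to 92.2%) and 58.1% in Aged D (54.7 to 61.4%), against 1.45% in Aged B (0.952 to 2.21%). In young mice it was found in 1 of 288 cells and in 0 of 104 and 0 of 402 cells, for which the limit set by 3 counts is 2.88% and 0.746%, and before thinning 1 cell in each of the latter 2 mice had a UMI. Intervals and limits cover counting error only. Before thinning the shares in Aged A to D were 80.2%, 2.77%, 95.6% and 71.9%, and the median AV cell had 4864 to 5602.5 UMIs in young and 6407 to 7796 in aged mice.

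Csn2 was found in fewer AV cells than Csn1s1 in each aged mouse, with thinned shares of 39.4%, 0.484%, 58.7% and 25.8% in Aged A to D. Vascular endothelial cells, which should lack caseins, gave thinned shares for Csn1s1 of 14.6%, 0%, 16.9% and 7.66% in the same mice (median 4805 to 5736.5 UMIs per cell). The share in AV cells of Aged A, C and D was above that background. In Aged B the thinned shares were close, as 0 of 285 endothelial cells has a 95% Wilson interval reaching 1.33%, which overlaps that of the AV cells. Before thinning 40 of 1446 AV cells (2.77%) and 2 of the 285 endothelial cells (0.702%) had a UMI. The summed level of Csn1s1 in this mouse was 18.5 CPM in AV cells (186 UMIs) and 1.40 CPM in endothelial cells (2 UMIs). The level expected from ambient RNA, estimated below, was 0.526 CPM. The thinned share of Csn2 in endothelial cells of Aged B was 0.351%, beside 0.484% in its AV cells. Csn3 was found in 78.1 to 94.2% of AV cells of young and 85.5 to 98.0% of aged mice after thinning. The median AV cell held 8, 24 and 16 UMIs of Csn3 in young mice and 50, 30.5, 67 and 54 in Aged A to D, before thinning.

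Csn2 and Csn1s2a were concentrated in a minority of cells, and Csn1s1 less so. The 10% of AV cells with the most UMIs of a gene held 74.9%, 63.0% and 72.3% of the Csn2 UMIs in Aged A, C and D and 78.3%, 67.4% and 80.0% of those of Csn1s2a. For Csn1s1 the share was 45.3%, 33.3% and 48.8%, and the median AV cell of Aged C held 29 of its UMIs. For Csn3 the same share was 25.6 to 33.4% over all 7 mice and for Mfge8 23.6 to 32.3%. Cells in which the 3 calcium-sensitive caseins took at least 1% of all UMIs numbered 124 of 860 in Aged A (14.4%), 285 of 909 in Aged C (31.4%), 45 of 811 in Aged D (5.55%) and 0 of 1446 in Aged B. The richest cell held 1965 UMIs of them, in Aged C. In Aged B 33 of the 186 Csn1s1 UMIs came from 1 cell.

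**Figure D2:**
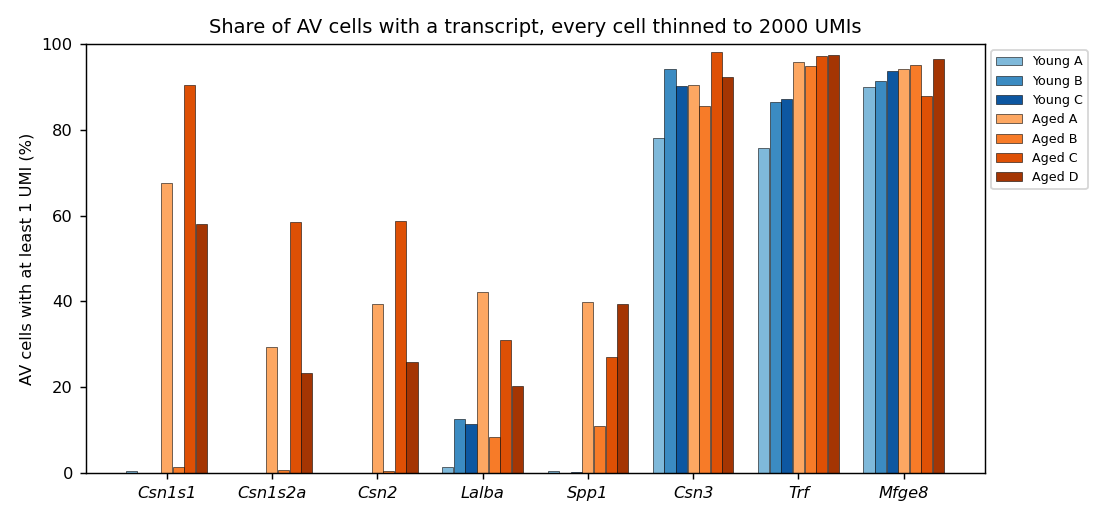
Percent of AV cells with at least 1 UMI of a milk protein gene in each mouse, with 2000 UMIs drawn per cell and 1 bar per mouse. For Csn1s1 the share is at most 1.45% in the young mice and Aged B and 58.1 to 90.4% in the other aged mice, whereas Csn3 is found in 78.1 to 98.0% of AV cells of every mouse.

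Within the AV cells of Aged A, C and D the caseins went together from cell to cell and Mfge8 did not. Spearman correlations of thinned counts, given as a description since the cells of a mouse share a library, were 0.48 to 0.65 for Csn1s1 with Csn2 (860, 909 and 811 cells), 0.48 to 0.70 for Csn1s2a with Csn2 and 0.52 to 0.62 for Csn1s1 with Csn3. Csn3 and Trf had values of 0.50 to 0.69 over all 4 aged mice. Mfge8 had −0.31 to −0.14 with Csn2 and −0.38 to −0.26 with Spp1. With Csn3 it had −0.21 to 0.008 and with Trf −0.20 to 0.26 over all 4 aged mice. In Young A to C its values with Csn3 were 0.04, 0.29 and 0.24. Mfge8 thus tended to be lower in cells of Aged A, C and D rich in the calcium-sensitive caseins, and this did not extend to Csn3 in every mouse. In a fixed total of 2000 UMIs many casein UMIs leave fewer for other genes, and the part of this was not tested.

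In the other cell types of aged mice most milk protein transcripts were at or below the level that free RNA would give, with exceptions given below. Ambient RNA, released by broken cells and captured with every other cell, was estimated in each mouse from 12 epithelial marker genes. Among them were Krt8, Krt18, Epcam, Elf5 and Wfdc18, and none was a milk protein gene listed at the start. Wfdc18 is itself a secreted milk protein gene. In AV cells its mean was 9033 CPM in young and 2802 CPM in aged mice. The part of Wfdc18 in the estimate was not tested by itself. The level of the 12 markers in the non-epithelial cells, as a percent of their level over the whole mouse, was 8.71%, 5.64% and 8.16% in young and 5.99%, 4.56%, 3.53% and 7.06% in aged mice. The means of 7.50% ± 1.64 and 5.29% ± 1.56 differed by −2.22 points (exact two-sided permutation test over 35 divisions, p = 0.143). From Krt8 and Krt18 alone, and thus without Wfdc18, the means were 7.16% and 4.90%. The percent from all 12 markers, applied to the mouse's overall level of a gene, gives the expected ambient level used below. The expected ambient level follows the whole mouse, and that of Csn3 was 30.5 to 53.1 CPM in young and 156 to 368 CPM in aged mice, in which AV cells were 4026 of 7312 cells against 794 of 6372.

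In the stroma the calcium-sensitive caseins did not rise above this level in Aged A, C and D. Over all non-epithelial cells no UMI of Csn1s1, Csn1s2a or Csn2 was seen in young mice, which allows at most 0.887 CPM in a mouse. In Aged A, C and D non-epithelial Csn1s1 was at 94.9, 120 and 59.4 CPM, 4.81%, 3.19% and 6.01% of the level of the whole mouse. The share for Csn2 was 4.20%, 2.27% and 3.55%, that for Csn1s2a 3.46%, 1.37% and 2.56% and that for Csn3 4.40%, 2.30% and 6.12%, beside an ambient share of 5.99%, 3.53% and 7.06% in the same mice. All 12 values of these 3 mice lay below the ambient share, those of Csn1s2a the furthest. Aged B differed, with a Csn3 share of 5.28% (358 UMIs) above its ambient share of 4.56%. Trf (5.45%), Spp1 (5.66%) and Lalba (19 UMIs) lay above it in this mouse too, as did Csn1s1 at 13.1% from 3 UMIs. The number of Csn3 UMIs per Csn1s1 UMI was 2.66 in AV and 2.43 in non-epithelial cells of Aged A, 1.86 and 1.34 in Aged C, and 5.27 and 5.37 in Aged D. Mfge8 lay above the ambient share, with a non-epithelial share of 10.3 to 14.9% in aged and 34.4 to 47.5% in young mice. In Young A to C the shares of Trf (30.3%, 19.1% and 18.9%) and Csn3 (10.4%, 18.1% and 11.1%) were above it too.

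**Figure D3:**
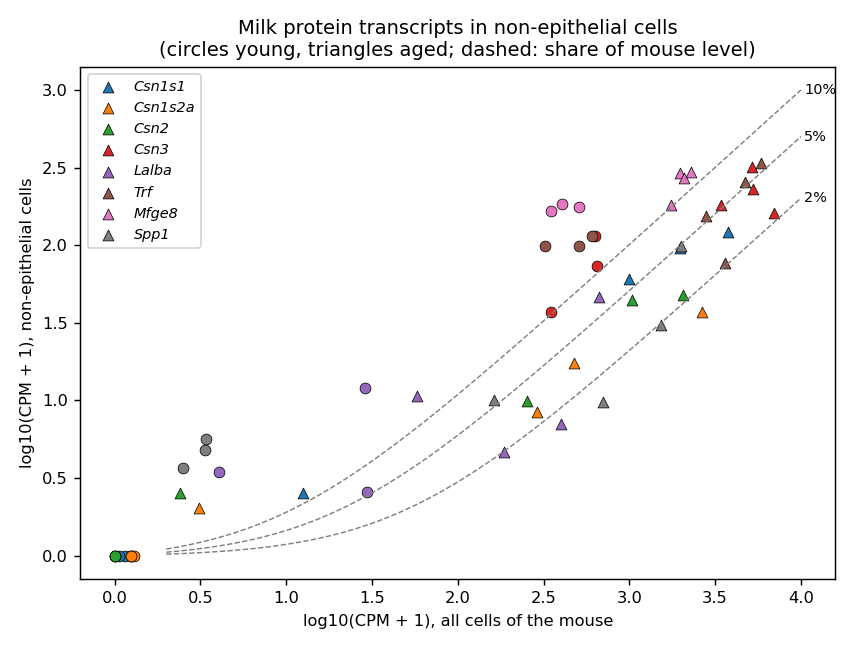
Level of 8 milk protein genes in the non-epithelial cells of a mouse (vertical axis) against the level over all its cells (horizontal axis), both as log10(CPM + 1), with circles for young and triangles for aged mice and dashed lines at 2, 5 and 10% of the level of the mouse. The caseins of Aged A, C and D lie at 1.37 to 6.12%, and Mfge8 lies at 10.3 to 47.5% over all mice.

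The age comparison in other types has to be read against these levels. In fibroblasts Csn1s1, Csn2 and Spp1 were called higher in aged mice, 3 of 6 genes tested where 2.07% of genes were called higher and 1.11% lower (adjusted p = 0.00121, 0.00340 and 0.00357, edgeR). These 3 had 0, 0 and 13 UMIs in young fibroblasts and were tested on the strength of the aged counts, so nothing is read from their number. In vascular endothelial cells 4 of 6 were called, Csn1s1, Csn2, Csn3 and Spp1, where 14.7% of genes were called higher and 12.0% lower, and the same holds there for Csn1s1, Csn2 and Spp1 (0, 0 and 1 young UMIs). The level of Csn1s1 in vascular endothelial cells was 0 in young mice and 108, 1.40, 102 and 52.1 CPM in Aged A to D, which was 0.746 to 0.916 times the expected ambient level in Aged A, C and D, and 2 UMIs in Aged B. In fibroblasts it was 69.0, 0, 50.6 and 64.0 CPM, 0.383 to 0.917 times the expected level in those 3 mice. Leaving out Aged A or Aged D left no call in either type, since the calcium-sensitive caseins and Spp1 then had too few counts to be tested, and leaving out Aged C left 1 call in fibroblasts. The call of Csn3 in endothelial cells was lost with DESeq2 (adjusted p = 0.0775) and without Aged A, Aged D, Young A or Young C (edgeR, 0.0587 to 0.111). Trf was called in neither (log2 change 2.16 ± 0.60 SE in fibroblasts and 1.09 ± 0.43 SE in endothelial cells, adjusted p = 0.0715 and 0.0735, edgeR), though it was called without Aged B in both types (adjusted p = 0.0240 and 0.0193). In Mb macrophages 1 gene, Trf, was tested and not called (log2 change 0.14 ± 0.40 SE, adjusted p = 0.910, edgeR), where 0.931% of genes were called higher and 0.233% lower.

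HS cells, the luminal cells that carry the receptors for estrogen and progesterone, had casein values of the same kind. Csn1s1, Csn1s2a, Csn2 and Spp1 were called higher in aged mice, 4 of 7 genes tested where 3.93% were called higher and 2.33% lower, and no call was left without Young C, or without Aged A, Aged C or Aged D, where these 4 had too few counts to be tested. With 0, 2, 0 and 6 UMIs in young HS cells they too were tested through the aged mice, and nothing is read from their number. Csn1s1 was at 0 in the 3 young mice and at 95.1, 0.973, 111 and 41.4 CPM in Aged A to D, beside 118, 0.526, 132 and 69.8 CPM expected from ambient RNA. Csn3 in HS cells was above the expected level in young mice, at 141, 102 and 141 CPM or 2.66 to 4.61 times that level. In aged mice it was at 145, 65.7, 107 and 380 CPM, 0.421 to 1.03 times the expected level (log2 change 0.57 ± 0.48 SE, adjusted p = 0.519, edgeR). The direction of Csn3 in HS cells turned without Aged D (log2 change −0.24). With ambient RNA subtracted the log2 change was −5.25 (adjusted p = 0.00274, edgeR) and that of Trf −10.13, and the aged sums lay at 0.286 to 1.03 times the level subtracted.

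The fitted age effect on Spp1 and Trf was larger in AV than in HS cells. Trf by itself was called in neither type (adjusted p = 0.0530 and 0.735, edgeR), and its direction in HS cells turned under some alternatives. Spp1 had 6 UMIs in all young AV cells and 6 in all young HS cells and was tested through the aged mice. In aged HS cells Spp1 lay at 0.332 to 0.694 and Trf at 0.286 to 0.761 times the expected ambient level. The HS side of the difference was thus not above that level in aged mice. The difference of the age effect between both luminal types was tested in 1 model with the mouse as a term, and 2 of 8 genes passed an adjusted p of 0.05, where 0.64% of genes passed with a larger effect in AV cells and 1.77% with a smaller one. The difference was 4.95 ± 1.02 SE on the log2 scale for Spp1 (adjusted p = 0.0148, edgeR) and 1.64 ± 0.40 SE for Trf (adjusted p = 0.0377). Both were lost without Young A (adjusted p = 0.148 and 0.180) and without Young C (0.0567 and 0.193), and Trf also without Aged A, Aged B or Aged C (0.0564 to 0.108). That of Spp1 was lost with cells thinned to 2000 UMIs as well (log2 4.39, adjusted p = 0.504). For Lalba the difference was 1.97 ± 0.52 SE (adjusted p = 0.0512, edgeR), for Csn3 1.24 ± 0.43 SE (0.160) and for Mfge8 0.35 ± 0.27 SE (0.599). For Csn1s2a it was 4.27 ± 1.46 SE (0.153) and for Csn1s1 0.84 ± 1.05 SE (0.819). The difference for Csn2 could not be estimated, since both luminal types were at 0 in all young mice.

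HS-AV cells, a luminal type with features of both others, held milk protein transcripts well above the ambient level in young mice. The study recognised this type by markers of both HS and AV cells, and its AV markers include Csn3, Trf and Mfge8. The height of these genes in HS-AV cells, here and in the orders below, is therefore given as a description. In Young A, B and C, with 12, 130 and 115 such cells, Csn3 was at 270, 809 and 643 CPM, 8.85 to 22.8 times the expected ambient level. Trf was at 513, 693 and 829 CPM and Mfge8 at 378, 324 and 699 CPM, each over 10 times the expected level. Lalba was at 0, 92.9 and 46.3 CPM, and no UMI of Csn1s1 or Csn2 was seen. Aged A, B and D had only 6, 6 and 4 HS-AV cells, and Csn3 there was at 36.7, 110 and 43.4 CPM, below the expected ambient level, so no comparison of age was made.

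Myoepithelial cells, the contractile cells that eject milk, carried Mfge8 above the ambient level in 7 of 7 mice and Trf in 6 of 7. Trf was at 527, 693 and 510 CPM in young and 574, 402, 469 and 416 CPM in aged mice. These were 10.4 to 24.2 times the expected ambient level in young mice and 1.01 to 3.70 times in aged mice, and the groups overlapped (log2 change −0.19 ± 0.19 SE, adjusted p = 0.466, edgeR). Mfge8 fell, from 620, 526 and 536 CPM in young to 339, 343, 294 and 266 CPM in aged mice with no overlap (log2 change −0.76 ± 0.18 SE, adjusted p = 0.00503, edgeR), and it kept its call in every alternative tried. The fitted change of Mfge8 thus had opposite signs in the myoepithelial and AV cells of the same mice. Its call in AV cells was lost in 12 of 16 alternatives, and the difference between these 2 changes was not tested.

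The other members called in myoepithelial cells were higher in aged mice, 6 of 8 tested with 1 lower, where 12.8% of genes were called higher and 14.8% lower. Of the 6, Csn1s1, Csn1s2a, Csn2, Lalba and Spp1 had 0 to 3 UMIs in all young myoepithelial cells and were tested through the aged mice, so nothing is read from the number. Csn3 was at 71.8, 54.1 and 22.7 CPM in young and 300.4, 194, 592 and 200.2 CPM in aged mice, 0.544 to 2.42 times the expected ambient level in the latter (log2 change 2.63 ± 0.41 SE, adjusted p = 0.000232, edgeR). Its call was lost with ambient RNA subtracted (log2 change 1.62, adjusted p = 0.402). Csn1s1 was at 0 in young mice and at 119, 1.72, 305 and 52.5 CPM in Aged A to D, beside 118, 0.526, 132 and 69.8 CPM expected, so Aged C stood at 2.30 times its expected level. Csn1s1, Csn1s2a, Csn2 and Lalba lost their calls without Young A. Leaving out Aged A or Aged D left 2 of the 7 calls, Aged C or Young A 3, Young B or Young C 4, and Aged B 5. In all, 23 of the 1670 myoepithelial cells were scored as doublets, 1.38% against 0.415% of AV cells.

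Pericytes, the contractile cells around small vessels, had Mfge8 above the ambient level in every mouse. It was at 289, 295 and 316 CPM in young and 943, 726, 368 and 618 CPM in aged mice, 3.83 to 15.0 times the expected level, and the groups did not overlap (log2 change 1.30 ± 0.26 SE, adjusted p = 0.00743, edgeR). All 3 genes tested were called higher, where 7.19% of genes were called higher and 4.61% lower. Csn3 (7.53, 108 and 0 CPM in young and 135, 901, 113 and 995 CPM in aged mice) and Trf lost their calls with DESeq2 (adjusted p = 0.0783 and 0.0607) and without Young A (0.0715 and 0.0711), and Csn3 also without Young C (0.0518). In Aged B 1 pericyte held 87 of the 170 Csn3 UMIs, and in Aged D 1 held 61 of 116.

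Trf was also above the ambient level in myeloid cells. In young Ma and Mb macrophages it was at 410, 537 and 422 CPM and at 320, 599 and 367 CPM, 7.49 to 20.9 times the expected level. The upper end is that of Mb macrophages of Young B, where 1 of 16 cells held 29 of the 46 Trf UMIs. Without that cell the level was 246 CPM. Of the 84 Csn3 UMIs in these 16 cells, 83 were in 1 cell. In aged Mb macrophages, from 3 to 9 cells a mouse, Trf was at 563, 167, 387 and 410 CPM, 0.995 to 3.06 times the expected level. Spp1 was at 5.78, 39.1 and 53.9 CPM in young Mb macrophages, from 3, 3 and 5 UMIs.

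The order of the types therefore depended on the gene. In young mice Csn3 was highest in AV cells (3768 ± 1765 CPM) and next in HS-AV cells (574 ± 276 CPM), and from HS-AV cells down no neighbouring types differed by more than the larger SD. Trf was highest in AV, HS-AV and myoepithelial cells (2909 ± 1396, 679 ± 159 and 577 ± 101 CPM), and HS-AV and myoepithelial cells did not differ beyond their spread. Mfge8 had the order AV, myoepithelial, HS-AV and pericyte (2060 ± 467, 561 ± 51.9, 467 ± 203 and 299.8 ± 13.9 CPM), in which AV cells stood apart. Myoepithelial and HS-AV cells did not exceed the type next below them by more than the larger SD. Pericytes did exceed the next type, vascular endothelial cells (190 ± 37.0 CPM), by more than that. In aged mice Mfge8 was highest in AV cells and then in pericytes (664 ± 239 CPM), while T and B cells (363 ± 265 CPM, from 4 to 19 cells a mouse) and myoepithelial cells (311 ± 37.0 CPM) followed and did not differ beyond their spread. Types with fewer than 3 mice of an age were left out of these orders.

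**Figure D4:**
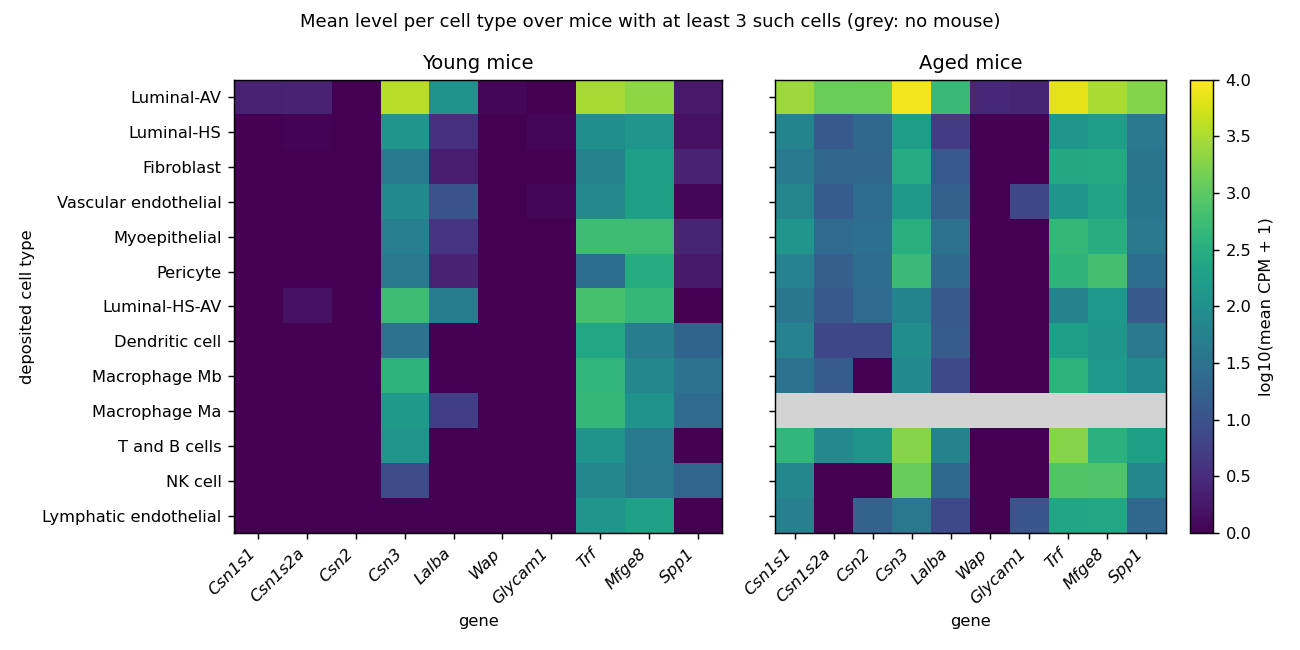
Mean level of each milk protein gene in each cell type as colour on a scale of log10(mean CPM + 1), for young mice on the left and aged mice on the right. AV cells carry the highest levels of the caseins, and Trf and Mfge8 also reach 577 and 561 CPM in young myoepithelial cells.

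**Figure D5:**
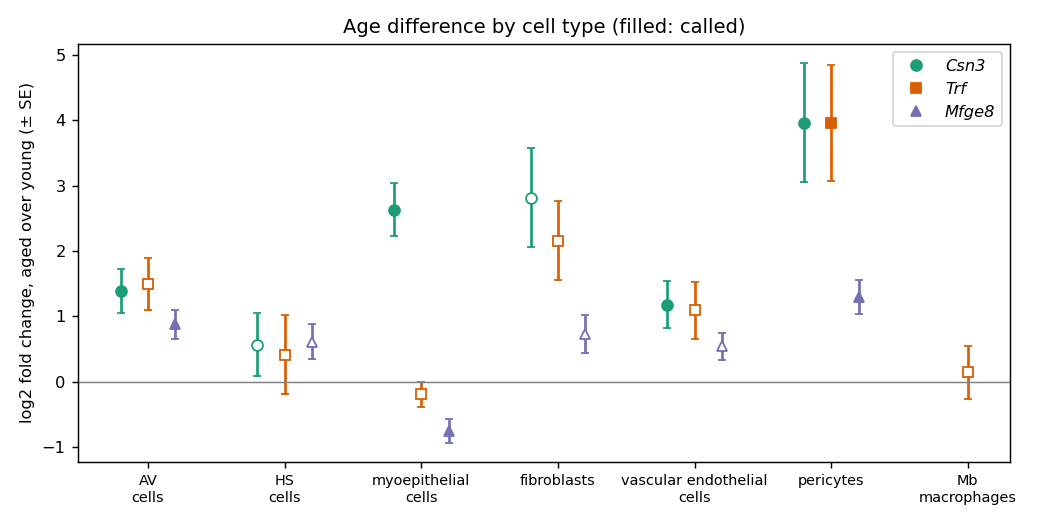
Log2 fold change from young to aged, with its standard error, of Csn3, Trf and Mfge8 in each cell type where the gene was tested, from the edgeR fits, with filled points for called changes. Mfge8 is at 0.88 in AV cells and 1.30 in pericytes and at −0.76 in myoepithelial cells, and Csn3 is above 0 in the types shown, which in HS cells turned without Aged D (−0.24) or with ambient RNA subtracted (−5.25).

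Glycam1 had 41 UMIs in AV cells and 36 in vascular endothelial cells. It encodes the ligand of L-selectin on high endothelial venules and is also secreted in milk. Vascular endothelial cells had 1 UMI in the 3 young mice together (932 cells) and 2, 11, 6 and 16 UMIs in Aged A to D (887 cells). The aged mean was 6.33 ± 3.42 CPM. In Aged D 10 of the 16 UMIs came from 1 cell. The counts were below the limit for testing.

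Other genes of milk synthesis, from 4 lists of 65 genes, did not move as one in AV cells. Of 14 other secreted milk proteins 13 were tested, 6 rose and 1 fell, with a median log2 change of 1.05 beside 0.017 over all genes, of which 2.9% were called higher and 3.26% lower. The 6 were the siderophore binder Lcn2 (2879 ± 699 to 4794 ± 866 CPM, adjusted p = 0.0294), the mucin Muc15 (78.3 ± 18.1 to 176 ± 33.5, 0.00521), Chil1 (71.0 ± 32.9 to 233 ± 117, 0.0416), the complement inhibitor Cd59a (17.7 ± 7.24 to 80.7 ± 2.36, 0.000684), the hemoglobin binder haptoglobin Hp (28.4 ± 20.9 to 356 ± 170, 0.00370) and the lipase Cel (3.57 ± 1.70 to 31.6 ± 13.8, 0.00509), all by edgeR. The one that fell was Wfdc18, at 9033 ± 2603 CPM in young and 2802 ± 855 CPM in aged mice (adjusted p = 0.00980).

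Regulators of the prolactin pathway split in both directions. Of 15 such genes 14 were tested, 2 rose and 2 fell, with a median log2 change of 0.27, to be read against the same shares of all genes. Elf5, a transcription factor of alveolar cells, rose from 203 ± 23.4 to 327 ± 11.6 CPM (adjusted p = 0.0120, edgeR) and Cish, a feedback inhibitor and target of STAT5, from 37.0 ± 4.10 to 63.2 ± 12.1 CPM (0.0216). Prlr, the prolactin receptor, fell from 196 ± 51.2 to 25.2 ± 2.45 CPM (0.000375) and the growth factor Areg from 94.6, 55.8 and 126 CPM in young to 4.94, 8.67, 8.18 and 2.90 CPM in aged mice (0.000657). Both genes that fell are also known from HS cells. The 5 HS markers, all detected, summed to 193 to 277 CPM in young AV sums and 30.0 to 39.3 CPM in aged ones. Prlr is among them and gave most of the sum, at 141, 243 and 204 CPM in Young A to C. The sum thus largely repeats the fall of Prlr and is no separate measure beside it. The part of RNA from HS cells in the fall was not tested.

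The lipid and lactose lists had medians near 0. Of 21 milk lipid genes 19 were tested, with a median log2 change of 0.063. The droplet coat gene Plin2 rose from 159 ± 16.8 to 523 ± 115 CPM (adjusted p = 0.00175, edgeR) and the kinase Pdk4 from 13.7 ± 4.70 to 185 ± 69.0 CPM (0.000558), while the fatty acid carrier Cd36 fell from 39.9 ± 19.3 to 3.31 ± 0.936 CPM (0.00126) and the desaturase Scd2 from 3.84 ± 0.688 to 0.720 ± 0.119 CPM (0.0204). Cd36 is also a gene of endothelial cells and fat, and the summed level of 5 vascular endothelial markers in AV sums was 20.2 to 48.5 CPM in young and 11.3 to 16.6 CPM in aged mice; that of 6 fibroblast markers was 86.3 to 406 and 10.2 to 35.7 CPM. Their part was not tested. Of 15 genes of lactose synthesis and ion transport 14 were tested, with a median of −0.039. The folate receptor Folr1 rose from 48.8 ± 23.5 to 123 ± 38.0 CPM (0.0340), and the chloride cotransporter Slc12a2 fell from 150 ± 32.4 to 20.2 ± 2.10 CPM (0.000328).

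The genes whose levels most resembled those of the caseins differed between Csn2 and Csn3. Over 58 sums of a mouse and a cell type with at least 10 cells, and 12371 genes with at least 100 UMIs in them, the Pearson correlation of log2(CPM + 1) with Csn3 was highest for Elf5 (0.85), Clic6 (0.81), Btn1a1 (0.80), Lcn2 (0.78) and Fcgbp (0.76), milk protein genes aside. For Csn2 it was highest for Rps18-ps3 (0.77), Lipm (0.76), Gm10260 (0.73), Wdr89 (0.72) and Atn1 (0.72), below its values with Csn1s2a (0.98) and Csn1s1 (0.97). The sums of a mouse share a library, and those of a type share a depth.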

How the data were processed

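The authors prepared 10x Chromium 3′ v2 libraries, used Cell Ranger 2.0 with mm10 and filtered cells on UMI number, gene number and mitochondrial share. The counts they deposited are UMIs of each gene in each cell, without normalization, beside a table naming the mouse and cell type of each cell (Seurat clusters named from markers). Cells held 2714 to 17158 UMIs, and each mouse 6652599 to 16999625. The mouse was the replicate. The 10 genes and the lists were chosen with earlier results of these data known.

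Counts were summed per mouse and type (at least 3 cells) and low genes were removed (filterByExpr). After TMM scaling, the quasi-likelihood test of edgeR 4.0.16 was run in R 4.3.3, with Benjamini-Hochberg adjustment over all genes, and the fits were tested on simulated data. CPM is UMIs per 1000000 UMIs of the sum. Fold changes in CPM are ratios of group means without TMM factors, and log2 changes are fitted with them. In AV sums these factors were 1.10 to 1.15 in young and 0.874 to 0.980 in aged mice. They raise fitted AV changes relative to ratios of CPM. A floor of 3 counts stands for a count of 0. Named genes were the 10, every called gene of 4 lists, and the 5 genes most correlated with Csn2 and with Csn3. The result of 1 further gene covered by this rule is not reported here. Agpat6 of the lipid list was matched to its current symbol Gpat4. Scrublet in scanpy 1.11.5 called 73 cells doublets, which were kept. Alternatives were DESeq2 1.42.0, RLE factors, no filter, no ribosomal protein and mitochondrial genes, no fold minimum, cells thinned to 2000 UMIs, no doublets, ambient counts subtracted, a block of the label letters and each mouse left out. Gene positions are from GENCODE vM21 on GRCm38 and sequences from RefSeq on GRCm38.p6.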

Additional observations from a re-analysis of the deposited data

Results flagged for a closer look

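The age effect on 2 genes differed between the luminal types in 1 model with the mouse as a term: that of Spp1 was larger in AV than in HS cells by 4.95 on the log2 scale and that of Trf by 1.64 (adjusted p = 0.0148 and 0.0377, edgeR). Trf was called in neither type by itself. Spp1 had 6 UMIs in young AV and 6 in young HS cells, and both genes lay below the expected ambient level in aged HS cells.

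Of 47 values tested for a mouse far from the others of its group, 1 stood apart, where chance alone flags about 1 in 20 groups. Lalba in vascular endothelial cells was at 53.0 CPM in Aged A and at 0, 6.24 and 3.17 CPM in Aged B, C and D. The expected ambient level of Lalba was 39.9 CPM in Aged A, the highest of the 4 aged mice.

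Milk protein transcripts also appeared in T and B cells, which took no part in the comparisons of age. In the 11, 19, 4 and 6 such cells of Aged A to D the mean levels were 452 CPM for Csn1s1, 1887 CPM for Csn3 and 1908 CPM for Trf, above those of the young mice. In each aged mouse 1 cell held most of the Csn3 UMIs: 37 of 46, 15 of 16, 53 of 55 and 145 of 158. None of these cells was scored as a doublet. The scoring flagged only 73 of all 13684 cells (0.533%, with the expected rate set to 0.06), so it cannot decide whether these cells were doublets.

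Glycam1 in vascular endothelial cells, below the limit for testing, had a mean of 6.33 CPM in aged mice and 1 UMI over all young mice.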

How the results depend on the processing

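Over 46 pairs of a gene and a comparison and 611 alternatives, 600 values kept their direction, 67 fell below the threshold and 23 newly passed it. The number of milk protein genes called was 6 in AV cells and 3 with ambient counts subtracted (1 to 6 with each mouse left out); 4 in HS cells, all higher, 2 with ambient counts subtracted (Csn3 and Trf, both lower, as the 4 then had too few counts to be tested) and 2 thinned (0 to 4); 7 in myoepithelial cells, 1 with ambient counts subtracted (Mfge8, lower) and 4 thinned (2 to 5); 3 in fibroblasts and 7 without the filter (0 to 5); 4 in vascular endothelial cells, 2 thinned and 7 without the filter (0 to 6); 3 in pericytes, 1 with DESeq2 and 8 without the filter (2 to 4); 0 in Mb macrophages and 1 without the filter (0 to 0); and 2 for AV against HS cells, 5 with ambient counts subtracted, 1 thinned and 4 without the filter (0 to 3). The difference in ambient share was −2.22 points, −3.15 in vascular endothelial cells alone (exact permutation p = 0.0286, the smallest that 35 divisions allow), −8.66 from Csn3 alone (exact p = 0.0286) and −3.15 to −1.61 with each mouse left out.

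Directions turned only in HS cells and Mb macrophages. In HS cells the log2 change with ambient counts subtracted was −5.25 for Csn3, −10.13 for Trf and −0.55 for Mfge8; with each mouse left out it was −0.24 (without Aged D) to 0.84 for Csn3 and −0.74 (without Aged D) to 0.73 for Trf. For Trf in Mb macrophages it was −0.33 without the filter, and −0.11 to 0.42 with each mouse left out, below 0 without Aged A (−0.08), Young A (−0.11) or Young C (−0.01). The causes were not tested. The label letters name different animals, and samples of 1 letter did not deviate together (r = −0.16, −0.06 and 0.06 for A, B and C), so the letters do not pair the mice. With the letters as a block, 4 milk protein genes were called in AV cells, as Csn3 (adjusted p = 0.0802, edgeR) and Mfge8 (0.147) were not, and the HS changes of Csn3 and Trf were −0.25 and −0.75. The number of all genes called ranged from 201 to 977 in AV cells (678 in the main analysis), 134 to 1215 in HS cells (529), 977 to 2222 in myoepithelial cells (1860), 30 to 582 in fibroblasts (175), 1285 to 2623 in vascular endothelial cells (2099), 128 to 560 in pericytes (307), 2 to 71 in Mb macrophages (10) and 83 to 514 for AV against HS cells (237). Small sums limit the stromal values: aged fibroblasts numbered 194 cells and aged Mb macrophages 22.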
